A study of Mus musculus with 94 samples.

Results

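The brains of Mgmt-/- mice were compared with those of wt mice 6 hr after methylazoxymethanol (MAM), the aglycone of the cycad toxin cycasin, across all genes of an Affymetrix whole-genome mouse array. The comparison uses 12 of the 94 arrays of the series, chosen by their labels of genotype, agent and time: 6 Mgmt-/- and 6 wt animals given MAM. The 6 Mgmt-/- and 6 wt animals given vehicle at the same time show which differences were there without MAM. All were male C57BL6 mice, 11 weeks old at treatment. The Mgmt-/- animals lacked a functional Mgmt gene in every cell, on the same C57BL6 background, and the MAM groups had received a single injection of 20 mg/kg MAM acetate. Each array held the RNA of 1 animal, extracted from a half-brain, so fewer cells of a type and less RNA per cell cannot be told apart. The animal numbers that end the array names form 2 sets, with 3 Mgmt-/- and 3 wt MAM animals each: set 1 runs like MGMT.MAM.6.325 and WT.MAM.6.125, set 2 like MGMT.MAM.6.949 and WT.MAM.6.725. These number sets 1 and 2 were taken as the 2 laboratories that treated the mice, and entered each fit as a block.

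MGMT repairs O6-methylguanine by moving the methyl group from the base onto a cysteine of its own, after which the protein is degraded. MAM releases a methylating ion that leaves this lesion in DNA, along with more abundant adducts that base excision repair removes. Where MGMT is missing, the lesion persists. In dividing cells it mispairs with thymine and engages mismatch repair, whereas most cells of the adult brain do not divide.

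Before the comparison, the arrays themselves were examined. Their median signals lay between 5.334 and 5.405 log2 units in Mgmt-/- MAM brain and between 5.321 and 5.374 in wt MAM brain, except for the array WT.MAM.6.127 at 5.576. Beta-actin (Actb) and Gapdh have control probe sets at the 3' and 5' ends of the transcript, and the 3' minus 5' signal serves as a measure of how complete the RNA or its labelled copy was. For Actb this value was 1.1, 1.208 and 1.432 in Mgmt-/- MAM brain (lowest, median and highest of 6 arrays), against 0.433, 0.736 and 0.951 in wt MAM brain, and the groups did not overlap. The difference of 0.5 log2 units had an exact two-sided permutation p of 0.005, the smallest that exchanges within the number sets can give. For Gapdh the difference was 0.01 (exact p = 0.72). The mean of both, called the RNA 3'/5' index here, was higher by 0.255 in Mgmt-/- MAM than in wt MAM brain (0.335 in number set 1 and 0.175 in number set 2, exact p = 0.005), and by 0.12 in Mgmt-/- vehicle than in wt vehicle brain (exact p = 0.005). Control transcripts outside the index went both ways. After MAM the 3' and 5' probe sets of the transferrin receptor differed by -1.24 and -0.97 (Mgmt-/- minus wt). Those of pyruvate carboxylase differed by -0.02 and -0.2.

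**Figure D1:**
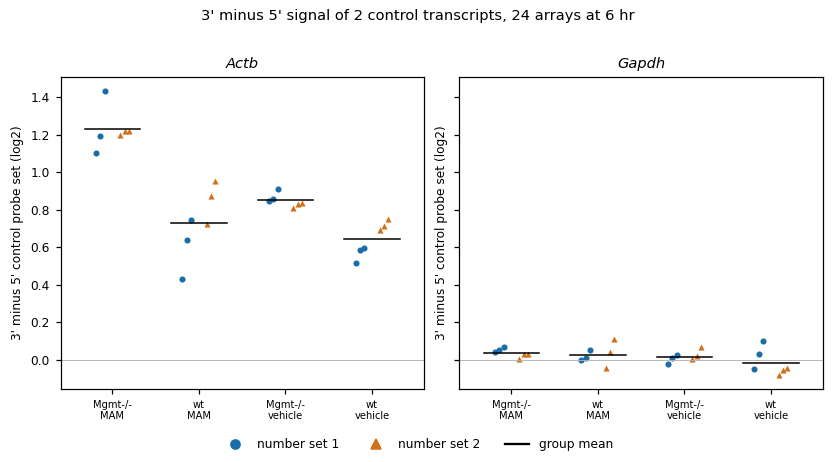
Signal of the 3' minus that of the 5' control probe set of Actb (left) and Gapdh (right), in log2 units, on each of the 24 arrays at 6 hr; points are arrays, symbols number sets and bars group means. The 6 Mgmt-/- MAM arrays lie between 1.1 and 1.432 for Actb, above all 6 wt MAM arrays, while the groups overlap for Gapdh.

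Mgmt itself, measured by 1 probe set, gave 5.09, 5.86 and 6.03 log2 units in Mgmt-/- MAM brain (lowest, median and highest), against 5.63, 5.76 and 6.21 in wt MAM brain. The groups overlapped, and the difference was -0.12 ± 0.18 (SE; adjusted p = 0.753 over all probe sets, limma). The labels and methods do not place this probe set inside or outside the disrupted stretch, so the signal is no test of genotype. The 24 measured genes nearest to it on chromosome 7 had a median difference of 0.08. Of these, 16 could be tested, and 0 were higher and 1 lower in Mgmt-/- brain, against 3.03% and 7.1% of all genes. The lower one was Ebf3, named after its values were seen. Its 3 probe sets had a mean difference of -0.86 after MAM (-1 and -0.71 in number sets 1 and 2) and of -0.67 in vehicle.

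After MAM, more genes were lower than higher in Mgmt-/- brain. Of 9670 genes tested, 687 were lower (7.1% of those tested) and 293 higher (3.03%) at an adjusted p under 0.05 and a fold change above 1.3 (limma). A gene was counted when any of its probe sets passed, so genes with many probe sets had more chances, and 19 genes are in both counts. Following the study's methods, only the 39.3% of probe sets whose laboratory interactions gave p above 0.15 entered this test. Without that filter 1774 of 18194 genes were lower (9.75%) and 580 higher (3.19%). In 1973 of all 45101 probe sets (4.37%) every Mgmt-/- MAM array lay below every wt MAM array, and in 677 (1.5%) every one lay above. With the RNA 3'/5' index of each array as a covariate, 185 genes were lower and 199 higher. These included 24.2% of the 687 and 34.5% of the 293, and the probe sets behind the 687 and 293 genes kept their sign in 95.5% and 100%, with medians of -0.48 and 0.63 with the covariate, against -0.56 and 0.51 without it. The index of Mgmt-/- and wt arrays did not overlap after MAM (0.57 to 0.75 against 0.244 to 0.531). Nor did it in vehicle (0.417 to 0.46 against 0.269 to 0.336). Index and genotype are thus hard to separate in this fit, and a call can be lost although the difference stays or grows. The part of the index in the genotype difference was not tested beyond this fit.

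The 12 deepest falls included genes for a chromatin subunit, a GABA receptor, a translation factor and a glucose transporter. Rbbp4, a histone-binding subunit of several chromatin complexes, had signals of 6.85, 6.92 and 7.08 log2 units in Mgmt-/- MAM brain (lowest, median and highest of 6 arrays), against 8.98, 9.37 and 9.52 in wt MAM brain. The groups stood far apart, with a difference of -2.37 ± 0.11 (SE; 5.18-fold lower, adjusted p = 6.67e-13, limma). Lin7c, a scaffold that holds receptors and channels at synapses, had 5.42, 5.76 and 6.48 in Mgmt-/- MAM brain, against 7.52, 7.93 and 8.11 in wt MAM brain. With no overlap between groups, the signal was 4.24-fold lower (-2.08 ± 0.16, adjusted p = 3.88e-09). Gabrb2, the beta-2 subunit of the GABA-A receptor, had 6.27, 6.51 and 7.16 in Mgmt-/- MAM brain, against 7.93, 8.51 and 8.81 in wt MAM brain. It too separated the groups fully and was 3.63-fold lower (-1.86 ± 0.16, adjusted p = 1.98e-08). Eif4a1, the RNA helicase that opens messenger RNAs for the ribosome, had 9.02, 9.06 and 9.29 in Mgmt-/- MAM brain, against 10.58, 10.96 and 11 in wt MAM brain. The spread within each group was small beside the gap, and the signal was 3.47-fold lower (-1.79 ± 0.07, adjusted p = 1.56e-13). Slc2a3, the main glucose transporter of neurons, had 5.17, 5.52 and 6.4 in Mgmt-/- MAM brain, against 6.66, 7.28 and 7.52 in wt MAM brain. The groups again did not overlap (-1.64 ± 0.14, adjusted p = 1.93e-08).

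The other falls among the 12 largest had differences between -1.52 and -1.82. They comprised Tspan5, a tetraspanin partner of the protease ADAM10 (-1.82), and Anp32a, a nuclear inhibitor of protein phosphatase 2A (-1.61). Rabgap1, which switches off Rab GTPases, differed by -1.6, and Gjc3, a gap junction protein of myelinating glia, by -1.59. Mtpn, a regulator of actin capping, differed by -1.52. The groups did not overlap in these genes. They did in Vapb, a protein of endoplasmic reticulum contact sites that is mutated in an inherited human motor neuron disease (-1.56, adjusted p = 7.54e-09), and in Cacna2d1, an accessory subunit of voltage-gated calcium channels (-1.56, adjusted p = 0.000568). Vapb ran from 6.03 to 8.13 in Mgmt-/- MAM brain and from 7.76 to 9.33 in wt MAM brain. Within the number sets its differences were -1.52 and -1.6. With the index as a covariate 8 of the 12 kept their call, at -2.14 to -1.14, while Anp32a (-1.27), Gjc3 (-0.36), Cacna2d1 (-1.24) and Mtpn (-0.82) did not.

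**Figure D2:**
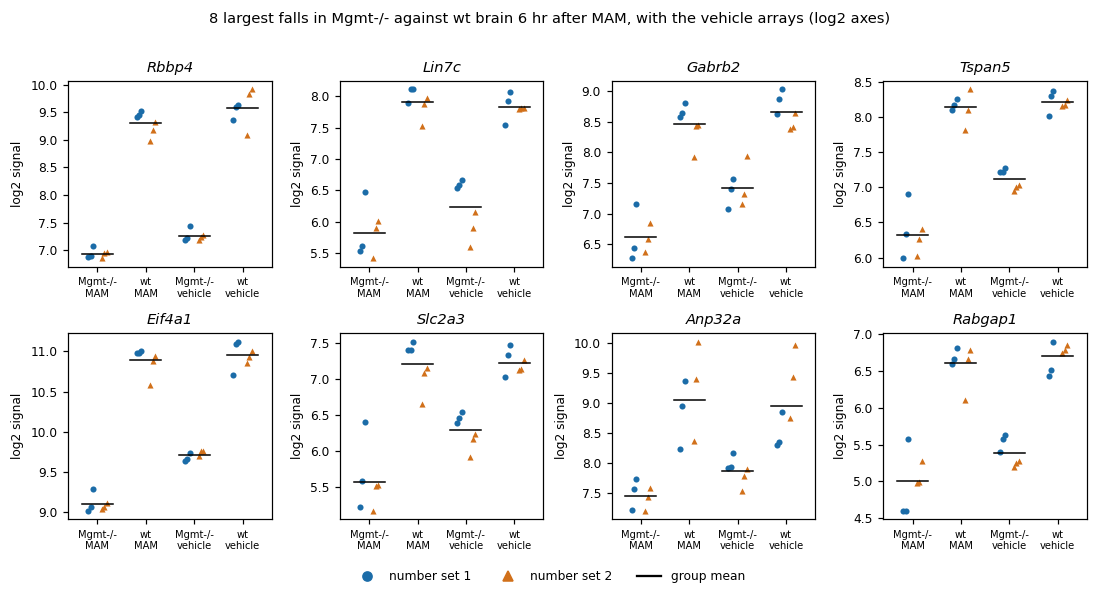
Signal on each of the 24 arrays at 6 hr for the probe sets of the 8 genes with the largest falls, in log2 units on separate axes; points are arrays, symbols number sets and bars group means. In each of the 8 genes every Mgmt-/- MAM array lies below every wt MAM array, and the vehicle means differ in the same direction.

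The largest rises were less uniform and included transcripts of the liver. Alb, the serum albumin made by hepatocytes, had 7.18, 7.45 and 9.73 log2 units in Mgmt-/- MAM brain (lowest, median and highest), against 5.46, 5.67 and 8.54 in wt MAM brain. The groups overlapped because of the array WT.MAM.6.127, which held the 8.54 (the next wt array had 6.15). The difference was 1.92 ± 0.54 (SE, 3.78-fold, adjusted p = 0.0182, limma), and 2.43 without that array. Without MGMT.MAM.6.329 or MGMT.MAM.6.949 it was 1.64 or 1.59, and the call was lost (adjusted p = 0.0502 and 0.0561). Apoa1, an apolipoprotein made by liver and gut, differed by 1.32 ± 0.4 (adjusted p = 0.0289) and lost its call when any 1 of 5 arrays was left out. In vehicle brain both ran the other way, with -1.63 for Alb and -0.3 for Apoa1 and no call.

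Ago2, the small RNA-guided protein that cuts and represses messenger RNAs, had 8.15, 8.79 and 8.89 in Mgmt-/- MAM brain, against 6.31, 6.92 and 7.94 in wt MAM brain. The groups did not overlap, and the signal was 3.27-fold higher (1.71 ± 0.25, adjusted p = 2.9e-05, limma). Nav3, a microtubule-binding protein of neurons, had 6.8, 7.16 and 7.63 in Mgmt-/- MAM brain, against 5.24, 5.86 and 6.4 in wt MAM brain, likewise with no overlap (1.4 ± 0.18, adjusted p = 9.61e-06). Spred2, an inhibitor of the Ras-ERK pathway, had 6.76, 7.43 and 7.82 in Mgmt-/- MAM brain, against 5.44, 6.16 and 6.28 in wt MAM brain (1.35 ± 0.24, adjusted p = 0.000344). Smarca4, the ATPase of SWI/SNF chromatin remodelers, had 7.95, 8.3 and 8.67 in Mgmt-/- MAM brain, against 6.47, 7.27 and 7.84 in wt MAM brain. Both genes separated the groups, Smarca4 with a difference of 1.14 ± 0.22 (adjusted p = 0.000626). Hmgxb4, a DNA-binding protein with an HMG box, showed the tightest rise (6.49, 6.8 and 7.13 in Mgmt-/- MAM brain, against 5.17, 5.52 and 5.93 in wt MAM brain). Its difference was 1.26 ± 0.13 (adjusted p = 1.98e-07).

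In the remaining members of the 12 largest rises the groups overlapped by at least 1 array. These were Gprin3, named for a role in neurite outgrowth (1.23), Slc8a1, the sodium-calcium exchanger (1.19), and Cbl, a ubiquitin ligase of growth factor receptors (1.1). They also held Kcnma1, the calcium-activated BK potassium channel (1.08), and Kmt2e, a chromatin protein related to histone methyltransferases (1.04). Gprin3 differed by -0.76 in vehicle brain, without a call. With the index as a covariate, 10 of the 12 kept their call, at 1.73 to 2.92, Alb and Apoa1 being the exceptions. All 12 were larger in number set 2 than in number set 1, for example 2.16 and 1.26 for Ago2, and of the 12 only Hmgxb4 passed in number set 1 alone.

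**Figure D3:**
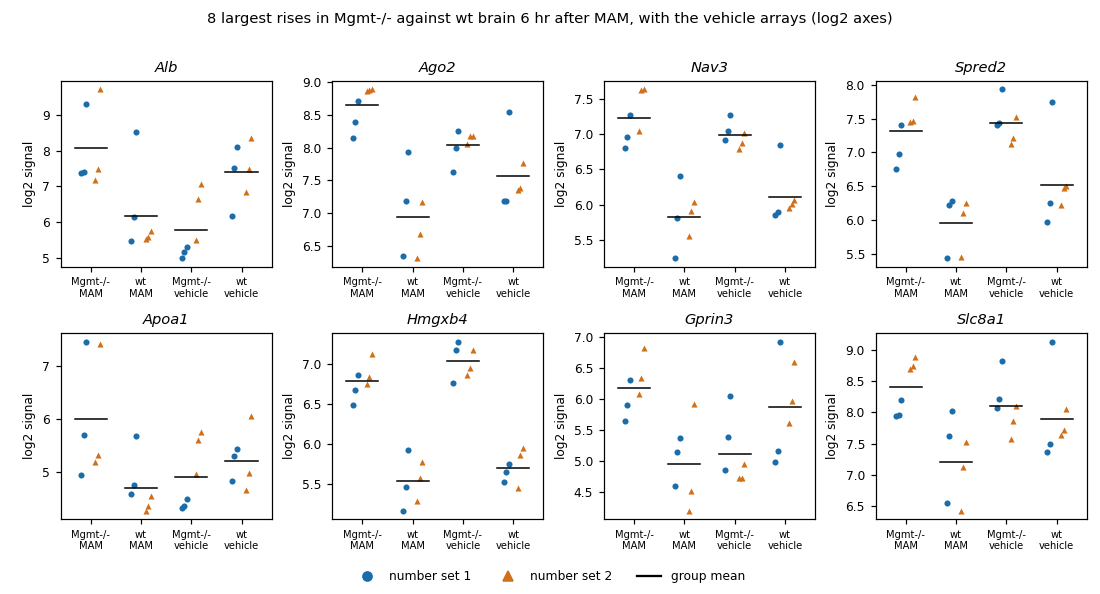
Signal on each of the 24 arrays at 6 hr for the probe sets of the 8 genes with the largest rises, in log2 units on separate axes; points are arrays, symbols number sets and bars group means. Ago2, Nav3, Spred2 and Hmgxb4 separate the 6 Mgmt-/- MAM from the 6 wt MAM arrays, while in Alb a wt MAM array at 8.54 lies among the Mgmt-/- arrays.

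Each number set was also tested alone, with 3 Mgmt-/- against 3 wt MAM arrays and all probe sets. Number set 1 gave 542 genes lower (2.98%) and 14 higher (0.0769%) in Mgmt-/- brain, and number set 2 gave 1904 lower (10.5%) and 1064 higher (5.85%). The same probe set passed in the same direction in both sets for 408 genes that were lower (2.24%) and 9 that were higher (0.0495%). In probe sets these were 512 (1.14% of 45101) and 13 (0.0288%), whereas 1 passed in opposite directions (0.00222%). These counts rest on few arrays: without MGMT.MAM.6.329 there were 10 lower genes, without WT.MAM.6.125 or WT.MAM.6.129 there were 13, and without WT.MAM.6.127 there were 87. Leaving out MGMT.MAM.6.325 gave 222 lower genes, and leaving out MGMT.MAM.6.327 gave 3.98% of all genes, against the 2.24%. The higher genes numbered between 1 and 13 over the 12 omissions. Across all 45101 probe sets, the differences in the 2 sets had a Pearson correlation of 0.605 and the same sign in 64.1%, given as a description, since probe sets of 1 array are not independent.

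Among the genes that passed in both number sets, the largest mean falls were in Norad, Rbbp4, Gja1, Ywhag and Sp3. Norad, a long noncoding RNA that binds Pumilio proteins, had 6.34, 7.99 and 8.11 log2 units in Mgmt-/- MAM brain (lowest, median and highest), against 9.73, 10.38 and 10.52 in wt MAM brain. No Mgmt-/- array reached the lowest wt array, and the differences within number sets 1 and 2 were -3.51 and -2.13. Gja1, the astrocyte gap junction protein connexin 43, had 7.19, 7.48 and 7.71 in Mgmt-/- MAM brain, against 9.38, 9.78 and 9.84 in wt MAM brain. Its differences in the sets were -2.13 and -2.34, again with no overlap. Ywhag, a 14-3-3 adaptor protein of neurons, differed by -2.3 and -2.1 in the sets, and the transcription factor Sp3 by -1.8 and -2.38. Norad, Gja1, Ywhag and Sp3 were set aside by the filter on laboratory interactions. Over all probe sets their adjusted p values were 5.52e-08, 4.7e-13, 1.92e-10 and 4.21e-08 (limma).

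The 5 largest mean rises of this kind were in Nudt21, Hmgxb4, Zfp932, Tet2 and Tns1. Nudt21, a subunit of cleavage factor I that helps choose where messenger RNAs are cleaved and polyadenylated, had 9.58, 9.83 and 9.88 in Mgmt-/- MAM brain, against 7.78, 8.01 and 8.25 in wt MAM brain. Both groups were tight and separate, with differences of 1.85 and 1.64 in the number sets (adjusted p = 1.42e-10 over all probe sets, limma). Of its 3 other probe sets, 1 was higher by 1.61 (adjusted p = 1.92e-10 over all probe sets, limma), while the brightest differed by -0.17. Zfp932, a zinc finger protein, differed by 0.86 and 1.23 in the sets, Tet2, which oxidizes 5-methylcytosine in DNA, by 0.87 and 0.99, and Tns1, a focal adhesion protein, by 0.71 and 0.96. The groups overlapped in Tet2 only among these 5.

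Many of the genotype differences after MAM were also present in vehicle brain. With the same filter and thresholds, 376 genes were lower (3.89%) and 128 higher (1.32%) in Mgmt-/- than in wt vehicle brain. Of the 687 genes lower after MAM, 300 were also called lower in vehicle at the same probe set (43.7%, and 79.8% of the vehicle calls). Of the 293 higher genes, 58 were also called in vehicle (19.8%, and 45.3% of the vehicle calls). The contrasts share no arrays, although they share 1 estimate of the spread and 1 filter. Among the 826 lower (4.66% of those tested) and 436 higher probe sets (2.46%), 96.2% and 94.7% had the same sign in vehicle, where the medians were -0.34 and 0.26, against -0.56 and 0.51 after MAM. Over all probe sets, 72% had the same sign in vehicle as after MAM. Rbbp4 differed by -2.31 in vehicle, Lin7c by -1.58, Vapb by -1.94, Hmgxb4 by 1.34 and Nav3 by 0.88, each with a call. For Ago2, Smarca4 and Slc8a1 the vehicle differences of 0.48, 0.3 and 0.21 were not called.

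**Figure D4:**
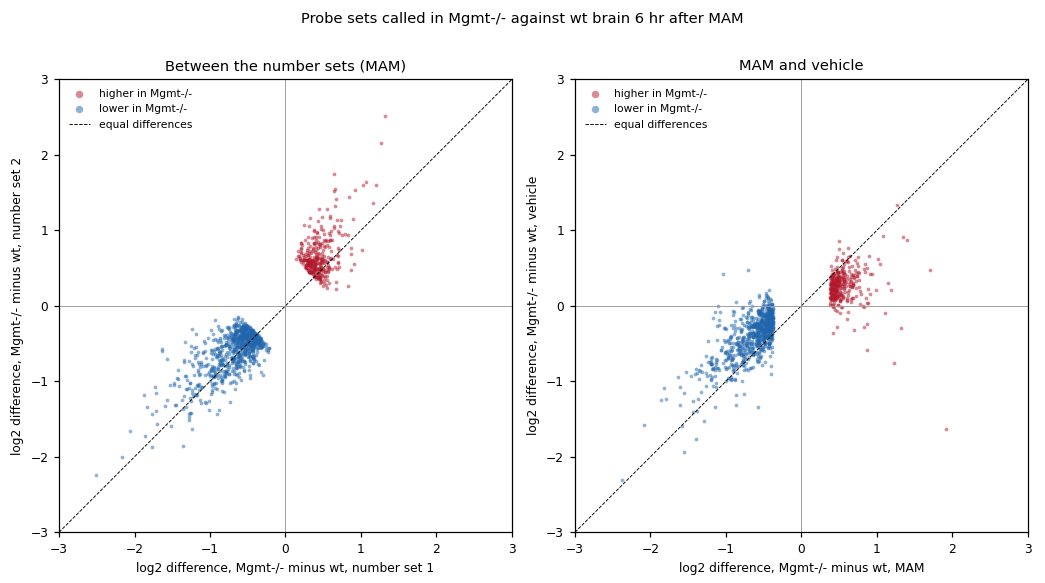
Log2 difference, Mgmt-/- minus wt, of each called probe set that names 1 gene, in number set 2 against number set 1 after MAM (left) and in vehicle against MAM (right); red points were higher and blue points lower in Mgmt-/- MAM brain, and the dashed line marks equal differences. The filter and the call use both number sets, so the agreement on the left is by construction. The vehicle arrays on the right are not in the MAM contrast, but they entered its filter and its estimate of the spread. There most points keep their sign and lie nearer to 0.

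A difference in MAM brain that passes the test is not by itself shown to differ from the one in vehicle brain, so the interaction of genotype and treatment was tested too. Over all genes it passed for 11 (0.114%), each more negative after MAM, and for 0 in the other direction (0%, limma with the same filter and thresholds). At an unadjusted p under 0.05 these counts were 904 and 370, and the ordinary linear model called 26 and 0. Among the 687 lower genes the interaction passed for 7 at the called probe set: Rps4l, Xpa, Eif4a1, Coa3, Rnf5, Coq7 and Plaa, chosen after their values were seen. Over all probe sets 4 genes passed (0.022%), and of the 7 only Xpa was among them. Rps4l, a ribosomal protein S4 paralog, had 7.89, 8.16 and 8.33 log2 units in Mgmt-/- MAM brain (lowest, median and highest), against 8.49, 8.83 and 9.1 in wt MAM brain. That is a difference of -0.68 after MAM with no overlap, against -0.04 in vehicle (interaction -0.64, adjusted p = 0.0408). Xpa, which checks damaged DNA in nucleotide excision repair, had 5.56, 5.84 and 6.03 in Mgmt-/- MAM brain, against 6.07, 6.22 and 6.39 in wt MAM brain. Its difference was -0.43 after MAM and 0.21 in vehicle (interaction adjusted p = 0.00601), while its brightest other probe set differed by 0.25 after MAM. Rnf5, a ubiquitin ligase of the endoplasmic reticulum membrane, differed by -0.51 after MAM and -0.02 in vehicle (interaction adjusted p = 0.0248), with no overlap of the MAM groups. Coq7, an enzyme of ubiquinone synthesis, Coa3, an assembly factor of cytochrome c oxidase, and Plaa, a ubiquitin-binding partner of p97, differed by -0.53, -0.83 and -0.55 after MAM and by -0.09, -0.3 and -0.11 in vehicle. Rps4l (-0.46 with the index as a covariate) and Xpa (-0.36) then lost their call after MAM, and the other 5 kept it.

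Many of the differences belonged to single probe sets of a gene. Of the 687 lower genes, 614 had another probe set, and while the called ones had a median difference of -0.58, the brightest other ones had -0.09. In 410 of the 614 genes (66.8%) the other probe set was lower too, in 74 it was called lower, and in 9 it was called higher. Of the 293 higher genes, 250 had another probe set, with medians of 0.5 and 0.08, of which 16 were called higher and 8 lower. The other probe set was the brighter one in 507 of the 614 and 176 of the 250 genes. Counted by the brightest probe set alone, 3.04% of 6538 genes were lower and 1.85% higher. For Rbbp4, for example, its brightest other probe set differed by -0.09 and its 3 others ranged from -1.14 to 0.19. Gja1 had 5 others between -0.27 and -0.14, and Norad 2 between -0.15 and -0.03. Ago2 had 3 others between 0.19 and 0.38. Which exons, ends or isoforms the probe sets of a gene cover was not analysed here.

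**Figure D5:**
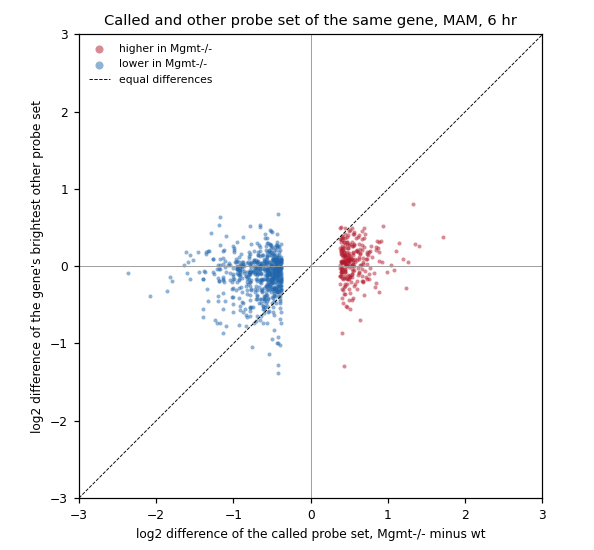
Log2 difference, Mgmt-/- minus wt after MAM, of the gene's brightest other probe set against that of its called probe set, for the 250 higher (red) and 614 lower (blue) genes with more than 1 probe set; the dashed line marks equal differences. Most other probe sets lie near 0, with medians of 0.08 and -0.09.

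In 19 genes 1 probe set passed as higher and another as lower. Of these, Arpp21, Ogt and Creb1 were chosen after their values were seen. Arpp21, a phosphoprotein of striatal and cortical neurons, had probe sets at 0.75 and -0.91, and the vehicle differences of the same probe sets were 0.53 and -0.79. Ogt, the enzyme that attaches O-GlcNAc to nuclear and cytosolic proteins, had 0.6 and -1.33 (0.59 and -0.79 in vehicle). Creb1, a transcription factor that responds to cyclic AMP and calcium, had 0.44 and -0.5. Meg3, an imprinted long noncoding RNA, had 0.94 and -0.78. No single direction can be given for these genes.

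In contrast, some genes had every probe set passing in the same direction. Of 9012 genes with 2 or more probe sets, these were 61 lower (0.677%) and 11 higher (0.122%). The count was made after the data were seen and without the filter. The genes named from it were also chosen after their values were seen. Eif2s3x, the X-linked gamma subunit of translation initiation factor eIF2, had a mean difference of -1.26 over 3 probe sets. Gng2, a G protein gamma subunit, had -1.15 over 4, and Srsf10, a splicing factor that responds to heat shock, -0.96 over 4. Dynll2, a light chain of dynein and myosin motors, and Gabra3, a GABA-A receptor subunit, had -1.1 and -1.08 over 2. In vehicle brain the same means were -0.83 for Eif2s3x, -0.6 for Gng2, -0.82 for Srsf10, -1.14 for Dynll2 and -0.94 for Gabra3. The higher genes had smaller means: 0.72 for Rph3a, a Rab3 effector of synaptic vesicles, 0.57 for Polr2a, the largest subunit of RNA polymerase II, 0.51 for Lrp1, an endocytic receptor, and 0.4 for Map1a, a neuronal microtubule protein. In vehicle brain these means were 0.53, 0.3, 0.24 and 0.25. With the index as a covariate Gng2 (-0.39), Polr2a (0.41), Lrp1 (0.43) and Map1a (0.21) lost their calls, each at its most changed probe set that passed the filter. The probe sets taken for Eif2s3x, Srsf10, Dynll2, Gabra3 and Rph3a were set aside by the filter, so the covariate did not test them. Map1a also lost its call without WT.MAM.6.727 or MGMT.MAM.6.329 (0.37 each).

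Gene groups were taken from 36 lists of pathways, cell types and brain regions, and each is described by its counts and by the median difference of the brightest probe set of its measured genes, which was 0.01 over all genes. Calls were often lost with the index as a covariate (limma), and the losses are given beside the lists. In some genes the call was lost although the difference grew, as in Pik3ca (-0.59 without and -0.81 with the index). Members named as called without the laboratory filter were chosen after their values were seen. They are given at their most changed called probe set in that direction. Their number is to be read against the 9.75% of all genes lower and 3.19% higher without the filter. Of 14 glutamate receptor genes tested, 5 were lower and 0 higher, a share of called genes to be read against the 7.1% and 3.03% over all genes, yet the list's median was -0.04. Gria4, an AMPA receptor subunit, had 5.79, 6.31 and 6.49 in Mgmt-/- MAM brain, against 6.83, 7.19 and 7.56 in wt MAM brain. All 6 Mgmt-/- arrays were below all 6 wt arrays (-0.93 ± 0.14, adjusted p = 4.44e-05), and the vehicle difference was -0.25. Grik2, a kainate receptor subunit, had 5.67, 5.8 and 6.06 in Mgmt-/- MAM brain, against 6.49, 6.75 and 6.97 in wt MAM brain (-0.93 ± 0.08, adjusted p = 1.93e-08), also without overlap. The metabotropic receptors Grm3 and Grm5 differed by -0.58 and -0.71, the groups overlapping in Grm5 alone. In vehicle brain they differed by -0.72 and 0.47, and the interaction was called in neither. The call of Grm5 was lost when any 1 of 6 arrays was left out, and its difference was 0.54 with the index as a covariate. Gria4 and Grm3 also lost their calls with that covariate, at -0.63 and -0.27. The brightest other probe sets of Gria4, Grik2 and Grm5 differed by 0.12, -0.05 and -0.05.

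Of 12 genes for GABA synthesis, transport and receptors, 3 were lower and 0 higher, with a median of -0.27 (-0.29 and -0.22 in the number sets, -0.22 in vehicle). Besides Gabrb2 these were Gabra2, a GABA-A receptor subunit common in the forebrain (-0.83), and Gabrd, a subunit of receptors outside synapses (-0.41, not called without MGMT.MAM.6.953). Neither Gabra2 (-0.62) nor Gabrd (-0.51) was called with the index as a covariate. Among 12 genes of synaptic vesicles and adhesion, 5 were lower and 2 higher. Napg, the gamma form of the SNAP adaptors that recycle fusion complexes, had 8.07, 8.12 and 8.21 in Mgmt-/- MAM brain, against 8.72, 9.11 and 9.28 in wt MAM brain. Its groups lay clearly apart (-0.94 ± 0.08, adjusted p = 2.69e-08). The adhesion molecules Nlgn1, Adgrl3 and Nlgn3 differed by -0.77, -0.68 and -0.64 with overlapping groups. All 3 lost their calls with the index as a covariate, Nlgn1 at 0, Adgrl3 at -0.56 and Nlgn3 at -0.68, whereas Napg was called at -0.67. Nlgn1 was also not called without WT.MAM.6.727 (adjusted p = 0.0516, limma).

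The list of splicing regulators held the most calls of the 36. Of 22 splicing regulators tested, 10 were lower and 3 higher, although the median of the 24 measured genes was 0.09. Srsf1, an SR protein that defines exons, had 7.83, 8.2 and 8.53 in Mgmt-/- MAM brain, against 9.24, 9.27 and 9.54 in wt MAM brain. Every Mgmt-/- array was lower than every wt array (-1.14 ± 0.11, adjusted p = 1.09e-07), and its 6 other probe sets ranged from -0.85 to -0.07. Nova1, a neuronal splicing factor, had 7.65, 7.91 and 8.27 in Mgmt-/- MAM brain, against 8.47, 8.68 and 8.77 in wt MAM brain (-0.71 ± 0.09, adjusted p = 5.81e-06), again without overlap. Luc7l, a component of U1 particles, and Celf1, which binds GU-rich RNA, differed by -1.14 and -1.11, with overlapping groups and other probe sets on both sides of 0. In vehicle brain Srsf1, Nova1, Luc7l and Celf1 differed by -0.93, -0.7, -0.74 and -0.46, the last without a call. Srsf1 and Nova1 were called with the index as a covariate, at -1.16 and -0.91, while Luc7l (-0.1) and Celf1 (-0.8) were not called.

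Of 11 long RNAs of the nucleus tested, 5 genes were higher and 2 lower (Meg3 counting under both), with a median of 0.23, against 0.24 in vehicle; the number sets had 0.05 and 0.22. Malat1, an abundant RNA of nuclear speckles, had 6.9, 7.66 and 8.43 in Mgmt-/- MAM brain, against 6.29, 6.77 and 7.34 in wt MAM brain. The groups overlapped (0.87 ± 0.2, adjusted p = 0.00339), and the 6 other probe sets of the gene ranged from -0.77 to 0.77. Meg3, with 11 probe sets between -0.78 and 1.4, and Rian, another RNA of the same imprinted locus (-0.84), went both ways within the list. Mirg, from that locus too, differed by 0.78 (adjusted p = 0.0177, limma) and lost its call without WT.MAM.6.125. None of Malat1, Meg3, Rian and Mirg kept its call with the index as a covariate.

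In MAPK signaling 4 of 11 genes were lower and 0 higher. Dusp6, a phosphatase that shuts off ERK and is itself induced by ERK, had 7.12, 7.73 and 8.04 in Mgmt-/- MAM brain, against 8.31, 8.64 and 8.8 in wt MAM brain. The groups did not overlap (-0.91 ± 0.11, adjusted p = 3.32e-06), and this is the only probe set of the gene. Map3k5, a stress-activated kinase, differed by -0.93, Araf, a RAF kinase, by -0.7, and Nras by -0.49. Among 14 immediate early genes, which follow neuronal activity, Dusp6 and Jun were lower (Jun -0.69 ± 0.12, adjusted p = 0.000173) and 0 were higher. The brightest other probe set of Jun differed by -0.07. Without the laboratory filter Arc (0.76), Egr1 (0.59) and Nr4a1 (0.56) were higher, and Dusp6 and Jun were still the 2 lower genes. This list's median was 0.09. Of 14 Wnt signaling genes, 3 were higher, led by Gsk3b, a kinase that marks beta-catenin for destruction (0.99), and 3 lower, among them Ctnnb1, beta-catenin itself (-0.53). Tcf4 (-0.56), which encodes a basic helix-loop-helix factor and shares only an older protein name with the Wnt effector Tcf7l2, is also counted there. The brightest other probe sets of Gsk3b and Ctnnb1 were brighter than the called ones and differed by -0.07 and -0.08. Of 9 genes of insulin and PI3K signaling, Pik3r1 and Pik3ca, a regulatory and a catalytic subunit of PI3-kinase, were lower (-0.89 and -0.59). Of 7 NF-kB genes 1 was higher and 1 lower, the lower being Tnfrsf21, a death receptor expressed in neurons (-0.77 ± 0.07, adjusted p = 9.17e-08). With the index as a covariate Dusp6, Map3k5, Araf, Gsk3b and Tnfrsf21 were called, at -0.91, -0.85, -0.57, 2.07 and -0.64. Calls were lost for Nras (-0.07), Jun (-0.61), Ctnnb1 (-0.17), Tcf4 (-0.4), Pik3r1 (-0.59) and Pik3ca (-0.81).

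Of 11 heat shock and endoplasmic reticulum chaperones tested, 2 were lower and 0 higher, with a median of -0.17 over 24 measured genes and the same in vehicle. Hsph1, a large heat shock protein that recharges Hsp70, had 8.83, 9.52 and 9.85 in Mgmt-/- MAM brain, against 10.27, 10.45 and 10.63 in wt MAM brain. Again the groups were separate (-0.99 ± 0.09, adjusted p = 9.87e-08). Hsp90aa1, the inducible cytosolic Hsp90, had 12.08, 12.18 and 12.51 in Mgmt-/- MAM brain, against 12.59, 12.74 and 12.86 in wt MAM brain (-0.53 ± 0.06, adjusted p = 2.89e-06). Of 23 oxidative phosphorylation genes, Uqcrc1 of complex III, Ndufb7 of complex I and Cox8a of complex IV were lower (-0.5, -0.49 and -0.45), each without overlap, and 0 were higher. Their vehicle differences were -0.13, -0.27 and -0.04. Of 11 cytosolic ribosomal protein genes 0 were called (limma), while at an unadjusted p under 0.05 there were 2 higher and 1 lower, and the ordinary linear model called 0. In the list of 8 cholesterol synthesis genes, Hsd17b7 and Ebp, enzymes of the later steps, were lower (-1.07 and -0.49), and neither was called with the index as a covariate (-0.36 and -0.46). The named chaperones and the 3 genes of oxidative phosphorylation kept their calls with it.

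Of 27 genes tested in 3 lists of the response to DNA damage, 1 was higher and 3 lower, and none of the 4 was called with the index as a covariate. Of 11 genes of alkylation and excision repair, Polb, the gap-filling polymerase of base excision repair, was higher (0.44 ± 0.11, adjusted p = 0.00842) and Xpa lower, and the median of the 20 measured genes was -0.03. Polb lost its call without WT.MAM.6.727 or MGMT.MAM.6.949 (0.37 each), and its brightest other probe set differed by 0.07. Mdm2, the p53 target that restrains p53, was the 1 called gene of 9 p53 targets tested, with 7.21, 7.37 and 7.45 in Mgmt-/- MAM brain, against 7.51, 7.81 and 7.98 in wt MAM brain. It was lower without overlap (-0.44 ± 0.07, adjusted p = 0.000217), its vehicle difference was -0.1, and it was at -0.17 with the index as a covariate. The brightest other probe set of Mdm2 differed by -0.07. The list's median was -0.09. Without the laboratory filter 4 of 18 measured p53 targets were lower, against 9.75% of all genes. At their most changed called probe sets, the others were Ccng1, an unusual cyclin (-0.83), Plk2, a kinase of neurons (-0.6), and Pmaip1, which encodes the death protein Noxa (-0.42). Smg1, a kinase of the damage and RNA surveillance pathways, was lower (-1.04 ± 0.28, adjusted p = 0.0123) with overlapping groups. Its vehicle difference was 0.42, in the other direction, and its interaction was not called. Smg1 was the 1 call among 7 genes of mismatch repair and damage kinases. Smg1 was at -0.38 with the index as a covariate, Polb at 0.29 and Xpa at -0.36. Among 13 chromatin genes, Smarca4 was higher, while Atrx, a chromatin remodeler, and Dnmt3a, a DNA methyltransferase, were lower (-0.72 and -0.91). Atrx was not called with the index as a covariate (-0.39). Dnmt3a was at 0.5 with the index as a covariate, without a call, and at -0.48 in number set 2 alone. The brightest other probe sets of Atrx and Dnmt3a differed by -0.02 and -0.08.

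Of 13 glucocorticoid-responsive genes, Mertk, a phagocytic receptor tyrosine kinase (0.48), and Nfkbia, the inhibitor of NF-kB (0.42), were higher and Errfi1, an inhibitor of the EGF receptor, was lower (-0.41). Of 8 clock genes, Per3 and Tef were higher (0.6 and 0.45) and Npas2 and Clock lower (-0.58 and -0.42). Of 8 neurotrophin, 11 interferon response and 7 metallothionein and oxidative stress genes tested, 0 were called by limma or by the ordinary linear model. At an unadjusted p under 0.05 the neurotrophin list had 2 higher and 3 lower genes, the interferon list 0 and 0, and the metallothionein list 0 and 2. Without the laboratory filter, Gclc, a subunit of the enzyme that limits glutathione synthesis, was higher (0.41, adjusted p = 0.00147 over all probe sets, limma). In the same list catalase, Cat (-0.74), the mitochondrial superoxide dismutase Sod2 (-0.47) and thioredoxin reductase, Txnrd1 (-0.89), were then lower. Of the neurotrophin list, Gfra2 and Sort1 were lower without the filter (-0.53 and -0.74), and Ntrk2, the BDNF receptor, had probe sets called at 0.45 and at -1.6. Of the interferon list, Ifi27 was lower (-0.4). Nfkbia lost its call when any 1 of 7 arrays was left out and without the laboratory filter (adjusted p = 0.0501). Errfi1, Mertk and Clock lost theirs when any 1 of 2, 1 and 1 arrays was left out. Tef was called with the index as a covariate (0.95), while Mertk, Nfkbia, Errfi1, Per3, Npas2 and Clock were not. Without the laboratory filter another probe set of Tef was called lower (-0.68, vehicle -0.48, adjusted p = 0.0391 over all probe sets, limma). Of 18 clock genes measured, 3 were then higher and 6 lower, Tef counting under both, against 3.19% and 9.75% of all genes.

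Markers of cell types and regions were compared to see how alike the tissue pieces were. Neurons, astrocytes and oligodendrocytes were all well represented, with mean marker signals in Mgmt-/- MAM brain of 11.541 to 11.828, 10.095 to 10.416 and 10.066 to 10.376 log2 units, against 11.539 to 11.684, 10.098 to 10.395 and 10.229 to 10.634 in wt MAM brain. The groups overlapped in each. List medians were -0.01, -0.05 and -0.11. Of 7 neuron markers tested 1 was higher (Syt1, 0.64, at a probe set that is not its brightest), of 6 astrocyte markers 1 was lower (Slc1a3, -0.56) and of 3 microglia markers 1 was lower (C1qb, -0.41, not called without WT.MAM.6.127 or MGMT.MAM.6.325). Of 3 oligodendrocyte, 3 precursor, 3 endothelial, 2 choroid plexus and 1 erythroid markers tested, 0 were called by limma or the ordinary linear model. At an unadjusted p under 0.05 there were 2 lower endothelial, 1 higher precursor and 1 higher erythroid marker. Without the laboratory filter more markers were lower, as were more of all genes (9.75%). Of 6 astrocyte, 6 oligodendrocyte, 3 precursor, 6 endothelial and 8 neuron markers measured, 3, 2, 1, 1 and 2 were lower. The values below are those of the most changed called probe set of each gene, whereas the list medians above use the brightest. Of the astrocyte list these were Gja1 (-2.24, vehicle -1.79), the water channel gene Aqp4 (-1.15, vehicle -0.98) and Slc1a3, and of the oligodendrocyte list Ugt8a, an enzyme of myelin lipid synthesis (-1.16, vehicle -1.3), and Mog, a myelin protein (-0.7, vehicle -0.82). The precursor marker Pdgfra (-0.64, vehicle -0.07) and Pecam1, an endothelial adhesion protein (-0.51, vehicle -0.12), were lower too. Among neuron markers Gad2, which makes GABA, was lower (-2.03, vehicle -1.13), and Syt1 had a further probe set at -0.94. None of Syt1, Slc1a3 and C1qb was called with the index as a covariate, at the probe sets that passed the filter. Among 8 liver genes, Alb and Apoa1 were higher, and the list's median was 0.41 after MAM and -0.2 in vehicle. The mean liver signal was 5.849 to 7.159 in Mgmt-/- MAM brain and 5.519 to 6.609 in wt MAM brain. Hypothalamic neuropeptides had a median of -0.57 (-0.64 and -0.29 in the number sets, -0.19 in vehicle), with mean signals of 6.012 to 7.684 in Mgmt-/- MAM brain and 7.324 to 8.453 in wt MAM brain. Of these, Avp, vasopressin, was called lower (-1.1 ± 0.35, adjusted p = 0.0359), but not when any 1 of 7 arrays was left out or with the index as a covariate (-1.01). Of 4 striatal, 4 cerebellar and 1 dentate or hippocampal markers tested, 0 were called by limma or the ordinary linear model, with 1 cerebellar marker lower at an unadjusted p under 0.05. Their list medians were -0.05, -0.21 and -0.33, the cerebellar one being 0 in number set 1 and -0.55 in number set 2. The part of unequal tissue in the differences of other genes was not tested.

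At the later times, which use other animals, most of the lower probe sets kept their direction, and most of the higher ones did at 24 and 48 hr. Of the 826 lower probe sets, 99.8% were lower in Mgmt-/- than in wt MAM brain at 24 hr, 99.6% at 48 hr and 92.9% at 168 hr, with medians of -0.51, -0.52 and -0.29. The array MGMT.MAM.168.343, which carries liver transcripts, was left out at 168 hr (with it 89.7% of the lower, median -0.35, and 49.3% of the higher probe sets, median 0, kept their direction). Of the 436 higher ones the shares were 99.3%, 87.4% and 56.2%, with medians of 0.42, 0.2 and 0.05. In vehicle brain the shares at 24, 48 and 168 hr were 95.6%, 87.5% and 97.6% of the lower and 95.9%, 93.3% and 92.4% of the higher probe sets. Over all probe sets, 77.1%, 74.7% and 63.7% had the same sign in MAM brain at the 3 later times as at 6 hr. In vehicle brain at those times 74.2%, 63.6% and 68.8% of all probe sets had the sign of the MAM difference at 6 hr.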

How the data were processed

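Log2 signals were taken as deposited. The authors obtained them by robust multi-array averaging (affy, version not stated), which corrects background, equalizes the arrays by quantiles and summarizes probes. Which arrays were normalized jointly is not stated. Of 45101 probe sets, 34958 name 1 gene (18194 genes), 932 several and 9211 none. Symbols came from the platform annotation.

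The 24 arrays of 6 hr were fitted with limma 3.58.1 (R 4.3.3), the model holding genotype, treatment, genotype by treatment and number set. The contrast was Mgmt-/- MAM minus wt MAM. Probe sets were kept where a joint F test of the laboratory interactions gave p above 0.15. P values were adjusted by the Benjamini-Hochberg method over the kept probe sets, and calls needed an adjusted p under 0.05 and a fold change above 1.3. The study's methods use an ordinary linear model, tried as an alternative. The calculation was tested on simulated data. Figures were drawn with matplotlib 3.10.9.

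Genes were named by a rule: Mgmt, the 12 largest called rises and falls, the 5 largest that passed in each number set alone, and in each list up to 4 called members, or the 2 largest differences where none was called. A gene is shown by its most changed called probe set, else its brightest. Genes outside the rule are marked as chosen after their values were seen. The comparison, lists and rule were chosen with earlier results of these data known. The number of arrays limits the precision. Labels do not say that arrays were processed in batches, so a batch shared with genotype cannot be told apart from it.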

Additional observations from a re-analysis of the deposited data

Results flagged for a closer look

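In 20 of 258 groups of 6 arrays examined, 1 array lay far from the other 5 of its group, where chance gives about 1 in 20. By array, 4 were from MGMT.MAM.6.953, 3 each from MGMT.MAM.6.327, WT.MAM.6.725 and WT.MAM.6.727, 2 each from MGMT.MAM.6.325 and WT.MAM.6.127, and 1 each from MGMT.MAM.6.329, MGMT.MAM.6.949 and MGMT.MAM.6.951.

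Among Mgmt-/- MAM arrays, MGMT.MAM.6.953 had low signals for Pcp2 (9.27 log2 units, next array 10.68), Gabra6 (9.43, next 11) and Gabrd (8.02, next 8.5) and a high one for Cspg4 (7.01). The genes Pcp2 and Gabra6 mark the cerebellum. MGMT.MAM.6.327 had high signals for Slc2a3 (6.4), Hsp90aa1 (12.51) and Clock (8.38). MGMT.MAM.6.325 was high for Eif4a1 (9.29) and low for Pdgfra (8.74). Low values were those of Atrx in MGMT.MAM.6.329 (5.56) and Drd2 in MGMT.MAM.6.951 (6.34), and Mirg was high in MGMT.MAM.6.949 (7.47).

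Among wt MAM arrays, WT.MAM.6.127 had high signals for the liver transcripts Alb (8.54, next array 6.15) and Apoa1 (5.68, next 4.75). WT.MAM.6.725 was low for Eif4a1 (10.58), Rabgap1 (6.1) and Norad (9.73). WT.MAM.6.727 was low for Drd2 (6.89) and Pcp2 (10.83) and high for Neurod6 (9.45).

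The interaction test (limma) passed in 7 of the named genes, each lower in Mgmt-/- relative to wt after MAM than in vehicle. Of these, Rps4l, Coa3, Rnf5, Coq7 and Plaa lay outside the naming rule and were chosen after their values were seen. The test passed for 11 of all genes tested (0.114%), and with adjustment over all probe sets only Xpa of the 7 passed. The interactions were -0.64 for Xpa (adjusted p = 0.00601), -0.64 for Rps4l (0.0408), -0.55 for Eif4a1 (0.0408) and -0.53 for Coa3 (0.0382). They were -0.48 for Rnf5 (0.0248), -0.44 for Coq7 (0.0382) and -0.44 for Plaa (0.0382).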

How the results depend on the processing

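Counts are given here as a share of the genes tested, higher and then lower in Mgmt-/- brain, against 3.03% and 7.1%. They were 3.19% and 9.75% without the laboratory filter (580 and 1774 genes), 3.05% and 9.99% with only the 12 MAM arrays and no filter, and 5.85% and 10.5% in number set 2 alone. In number set 1 alone 0.0769% were higher. Lower genes made up 8.34% with the filter at p 0.05 (1081 genes), 7.72% with the filter only on number set by genotype (1266 genes) and 1.91% with the index covariate (185 genes). Without a fold threshold the shares were 7.29% and 13.7%, above 1.5-fold 0.91% and 3.31%, with the brightest probe set of each gene 1.85% and 3.04%, and among probe sets above the median signal 4.43% and 11.1% (245 and 612 genes). Where every probe set of a gene had to pass, an alternative chosen after seeing the data, they were 0.122% and 0.677% (11 and 61 genes). Leaving out 1 array gave 1.93% to 4.16% higher, the lowest without WT.MAM.6.727 (188 genes), and 6.14% to 8.3% lower. Cyclic loess, array weights, the ordinary linear model and no block for the number set stayed within 1.5 times both shares. Genes passing in each number set alone were 0.0055% to 0.0715% higher and 0.055% to 3.98% lower when 1 array was left out, also chosen after seeing the data. The difference in the index, 0.255, was 0.335 and 0.175 within the number sets (exact permutation p = 0.1 each, the smallest that 3 against 3 allows) and 0.01 for Gapdh alone (exact p = 0.72). Genes also called in vehicle numbered 124 higher and 823 lower without the filter. Of the named probe sets 108 were called, 33 of them under each alternative that gave a value. With the index covariate the sign turned for Grm5 (0.54) and Dnmt3a (0.5), and Creb1 and Nlgn1 came to 0. The causes of these changes were not tested. No paired analysis was possible because the genotypes share no animal numbers.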
